A study of Homo sapiens and Mus musculus with 12 samples.

Results

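The enzymes that build mucin-type O-glycans were examined for nearby SPDEF and GATA6 binding in HPAF-II, an established human pancreatic ductal adenocarcinoma (PDA) cell line. The set comprised 9 genes of known function in this pathway, chosen with earlier results of these data known. They were GCNT3, ST6GALNAC1, B3GNT3, GALNT2, GALNT3, GALNT4, GALNT7, GALNT12 and C1GALT1. Peaks counted as near a gene when any base lay within 50 kb of it on the genome build hg19. This gave 22 peaks, made up of 5 of the 2775 SPDEF peaks and 17 of the 10670 GATA6 peaks.

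All peaks came from CUT&RUN, which uses an antibody to bring a nuclease to chromatin and sequences the DNA that is released. Cells of both groups used here were HPAF-II carrying HA-tagged human SPDEF. One group of 3 libraries used an antibody against the HA tag, and its peaks are called SPDEF peaks below. The other group of 3 libraries used an antibody against GATA6 in the same tagged cells, so GATA6 binding without the tagged SPDEF was not measured. The labels do not say whether the tagged line was 1 clone. Each antibody has 1 deposited list of peak positions with no score and no values per library, so no count below has a replicate error and no test between conditions was possible. The depth behind the lists is unknown. The IgG and H3K4me3 libraries and the mouse Spdef list, of 5719 peaks, were not analysed here. A peak list does not measure expression, so whether the 9 genes are transcribed in these cells is not shown.

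Mucins are long proteins rich in serine and threonine whose side chains carry dense sugar chains, which hold water and give mucus its gel. The chains are built stepwise in the Golgi: GALNT enzymes attach the first sugar, C1GALT1 adds galactose to form the core 1 structure, GCNT3 adds a branch to form core 2 and core 4, and other enzymes extend the chain or cap it with sialic acid. SPDEF, an ETS-family transcription factor, is known as a driver of goblet cell differentiation and mucus secretion, and GATA6 is a zinc-finger factor of endoderm whose level marks classical PDA.

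A peak midpoint lay within 2 kb of the 5′ end at C1GALT1, GALNT3 and GALNT4. Promoter bases are shown first for C1GALT1 and GALNT3, no promoter sequence of GALNT4 being used here, and then for GALNT7 and GALNT12, which hold both ETS motifs searched but have no SPDEF peak within 50 kb. The last 2 were chosen after their motifs were seen. Each line gives the 250 bases before the transcription start, 5′ to 3′ on the gene's own strand, from RefSeq on GRCh38.p14. That build differs from the hg19 of the peaks, so the exact place of a peak within these bases was not read. Capitals mark GGAA or GATA on either strand, and the longer motif CCGGAA or CCGGAT where it occurs.
C1GALT1 (chr7:7182294-7182543, plus strand): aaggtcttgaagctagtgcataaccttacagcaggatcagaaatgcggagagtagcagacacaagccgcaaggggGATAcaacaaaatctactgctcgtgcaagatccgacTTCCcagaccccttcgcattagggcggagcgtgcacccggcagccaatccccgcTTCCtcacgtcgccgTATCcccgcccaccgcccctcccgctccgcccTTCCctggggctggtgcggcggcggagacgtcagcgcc
GALNT3 (chr2:165794248-165794497, minus strand): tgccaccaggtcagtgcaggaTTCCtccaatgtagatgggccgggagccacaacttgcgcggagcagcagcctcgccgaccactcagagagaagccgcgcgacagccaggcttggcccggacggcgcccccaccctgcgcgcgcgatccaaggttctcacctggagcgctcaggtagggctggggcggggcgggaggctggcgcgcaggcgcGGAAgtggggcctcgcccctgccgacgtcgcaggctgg
GALNT7 (chr4:173168561-173168810, plus strand): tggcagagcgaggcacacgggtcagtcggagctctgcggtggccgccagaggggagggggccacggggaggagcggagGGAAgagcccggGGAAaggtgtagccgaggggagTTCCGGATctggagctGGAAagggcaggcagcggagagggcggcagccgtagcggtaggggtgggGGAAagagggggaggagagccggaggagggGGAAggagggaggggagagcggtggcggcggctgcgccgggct
GALNT12 (chr9:98807420-98807669, plus strand): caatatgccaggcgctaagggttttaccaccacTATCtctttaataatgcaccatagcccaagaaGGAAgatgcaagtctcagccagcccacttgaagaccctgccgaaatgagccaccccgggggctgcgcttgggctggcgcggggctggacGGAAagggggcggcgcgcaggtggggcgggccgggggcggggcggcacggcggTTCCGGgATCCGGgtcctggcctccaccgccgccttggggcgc

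SPDEF peaks lay near 3 of the 9 genes: 3 at GCNT3, 1 at C1GALT1 and 1 at B3GNT3. GATA6 peaks lay near 7: 6 at C1GALT1, 3 each at GCNT3 and ST6GALNAC1, 2 at GALNT3, and 1 each at GALNT2, GALNT4 and GALNT7. Across the 9 window lengths, 6.94 to 17.5% of genome tiles of equal length, described below, held an SPDEF peak. A GATA6 peak was held by 21.9 to 44.7% of them. GCNT3 and C1GALT1 were the 2 genes with peaks of both factors. B3GNT3 had an SPDEF peak and no GATA6 peak, 5 genes had GATA6 peaks alone, and GALNT12 had neither. The 5 GALNT genes, which start the chains, had 0 SPDEF peaks, where the length of their windows gives 0.891, and 5 GATA6 peaks, where it gives 3.43, so both counts were near the background. The windows of GCNT3 and C1GALT1, enzymes of the core structures, held 4 SPDEF peaks where their length gives 0.249, and 9 GATA6 peaks where it gives 0.959. Of those 4 SPDEF peaks, 3 were from GCNT3 alone. This pair was not a planned group and is the same 2 genes that had peaks of both factors. Its counts therefore cannot show a difference between core and initiating enzymes.

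**Figure D1:**
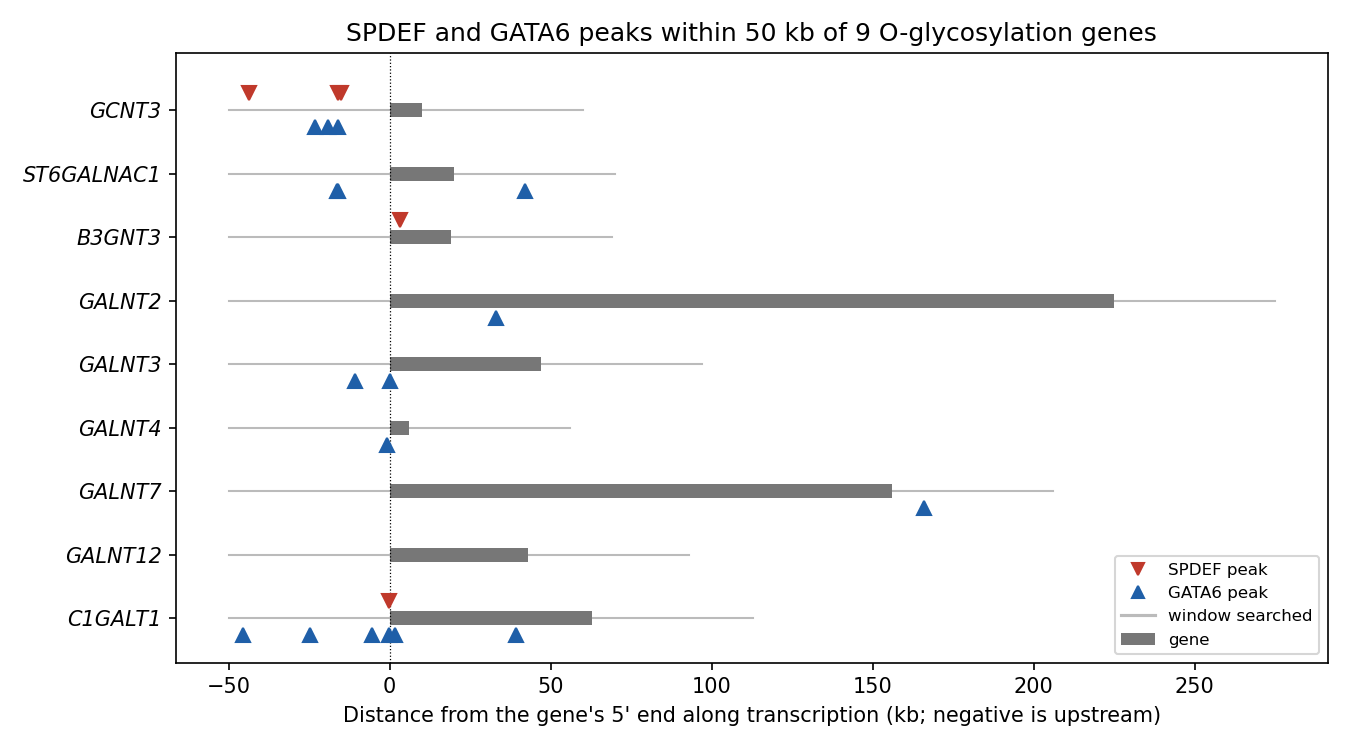
Midpoints of the SPDEF peaks (red, above) and GATA6 peaks (blue, below) along each of the 9 genes, drawn as distance in kb from the gene's 5′ end in the direction of transcription; grey bars are the genes and thin lines the 50 kb on either side. Red marks appear at GCNT3, B3GNT3 and C1GALT1 only, and neither colour appears at GALNT12. Marks of close peaks merge. The upstream mark of ST6GALNAC1 stands for 2 peaks, as does the red mark of GCNT3 nearest its 5′ end. At the 5′ end of C1GALT1, 2 blue marks overlap.

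The searched windows covered 1489 kb, or 0.049% of chromosomes 1 to 22 and X. At the rates of those chromosomes, 0.912 SPDEF and 3.51 GATA6 peaks per Mb, that length gives 1.36 SPDEF and 5.23 GATA6 peaks. The SPDEF count of 5 was 3.68 times this number (exact 95% Poisson interval 1.20 to 8.59), and the GATA6 count of 17 was 3.25 times (1.89 to 5.2). With the rates of each gene's own chromosome the ratios were 3.72 (1.21 to 8.67) and 3.37 (1.96 to 5.39). The SPDEF ratio rested on GCNT3: without that gene 2 peaks stood against 1.26 by length, a ratio of 1.59 (0.193 to 5.74), and without C1GALT1 the ratio was 3.31 (0.901 to 8.47). Without C1GALT1 the GATA6 ratio was 2.36 (1.18 to 4.23), from 11 peaks. The intervals cover counting error only, not the choice of genes, and treat peaks as independent, although peaks cluster. The windows all hold a gene while the rate by length includes stretches without one, and the part this plays was not tested. Whole chromosome lengths were used, so unsequenced stretches, where no peak can be called, also count in that rate. Those outside centromeres also count in the tiles used below.

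**Figure D2:**
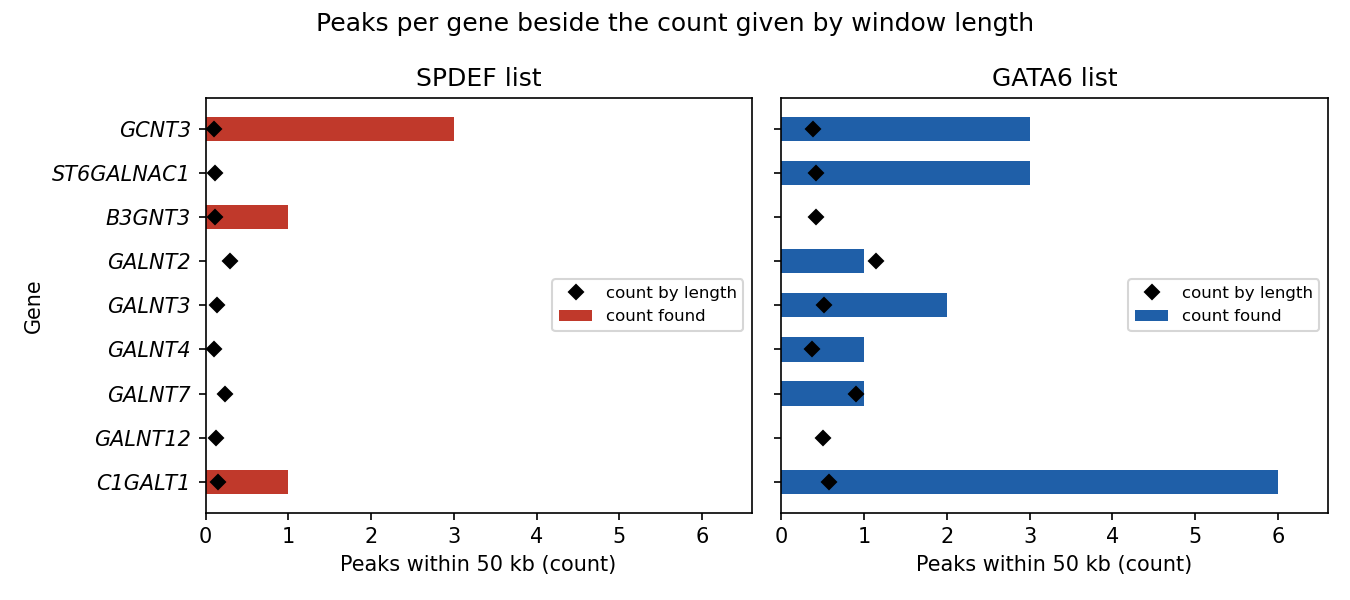
Bars give the number of SPDEF peaks (left, red) and GATA6 peaks (right, blue) within 50 kb of each gene, and diamonds the number given by the length of its window at the rate of chromosomes 1 to 22 and X. GCNT3 has 3 SPDEF peaks beside a diamond at 0.1, C1GALT1 has 6 GATA6 peaks beside one at 0.572, and the GATA6 bars of GALNT2 and GALNT7 end at 1, beside diamonds at 1.14 and 0.899.

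As a background for each gene, hg19 chromosomes 1 to 22 and X were divided into successive tiles as long as that gene's window, leaving out tiles that touch a centromere, and the share of tiles with at least as many peaks was counted. Gene edges are known to 1 kb, so distances to a 5′ end carry that error, while distances between peaks are exact. Strand and neighbouring genes are from RefSeq or general knowledge, and whether a peak inside a gene lies in an exon or an intron was not analysed here.

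C1GALT1 (chromosome 7, 7222 to 7285 kb), the galactosyltransferase that makes core 1, had the only overlap of an SPDEF and a GATA6 peak in the set. The SPDEF peak (7221556 to 7221994, 439 bp) had its midpoint 0.2 kb before the 5′ end of the gene. The GATA6 peak beside it (7221747 to 7222090, 344 bp) had its midpoint 0.1 kb before that end. They shared 248 bp (7221747 to 7221994), which is 56.5% of the SPDEF peak and 72.1% of the GATA6 peak, and their midpoints were 143.5 bp apart. Both thus lay at the promoter, at the precision of the gene edges. An SPDEF peak was present in 10.0% of 163 kb tiles and an overlapping SPDEF peak in 7.22%.

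The other 5 GATA6 peaks of C1GALT1 were spread along its window. The nearest to the 5′ end was 1.7 kb inside the gene (7223515 to 7223791, 277 bp). One of 757 bp, the widest GATA6 peak of the set, lay 5.3 kb upstream (7216300 to 7217056). Farther upstream were peaks at 24.7 kb (7197284 to 7197348, 65 bp) and 45.6 kb (7176152 to 7176588, 437 bp), and the last was 39.4 kb inside the gene (7261305 to 7261498, 194 bp). Thus 3 of the 6 lay within 5.3 kb of the 5′ end. At least 1 GATA6 peak was found in 29.6% of 163 kb tiles and at least 6 in 1.20%. COL28A1, a collagen gene, is the protein-coding neighbour past the 3′ end.

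GCNT3 (chromosome 15, 59903 to 59913 kb), the branching enzyme of core 2 and core 4 found in mucus-secreting epithelia, had most of the SPDEF peaks, all upstream. The nearest to the gene (59887805 to 59888006, 202 bp) lay 15.1 kb before the 5′ end. The next (59886986 to 59887030) was 45 bp wide and lay 16 kb before it. The farthest (59859388 to 59859615, 228 bp) lay at 43.5 kb. At least 3 SPDEF peaks were found in 0.582% of 110 kb tiles, and at least 1 in 7.25%. No peak of either list lay in GCNT3 itself or within 10 kb of it.

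The GATA6 peaks of GCNT3 fell in the same stretch. They lay 15.9 kb (59887047 to 59887215, 169 bp), 19.1 kb (59883723 to 59884074, 352 bp) and 23.3 kb (59879562 to 59879829, 268 bp) upstream of the 5′ end. At least 3 GATA6 peaks were found in 4.24% of 110 kb tiles and at least 1 in 22.4%. The GATA6 peak at 15.9 kb sat between the 2 nearer SPDEF peaks. It was separated from the 45 bp SPDEF peak by 16 bp and from the 202 bp SPDEF peak by 589 bp, with midpoints 123 bp and 774.5 bp away, so none of the 3 counted as overlapping by the rule of 1 shared base. In the order of RefSeq genes, FAM81A is the protein-coding neighbour on the upstream side and GTF2A2, a general transcription factor subunit, the one past the 3′ end.

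**Figure D3:**
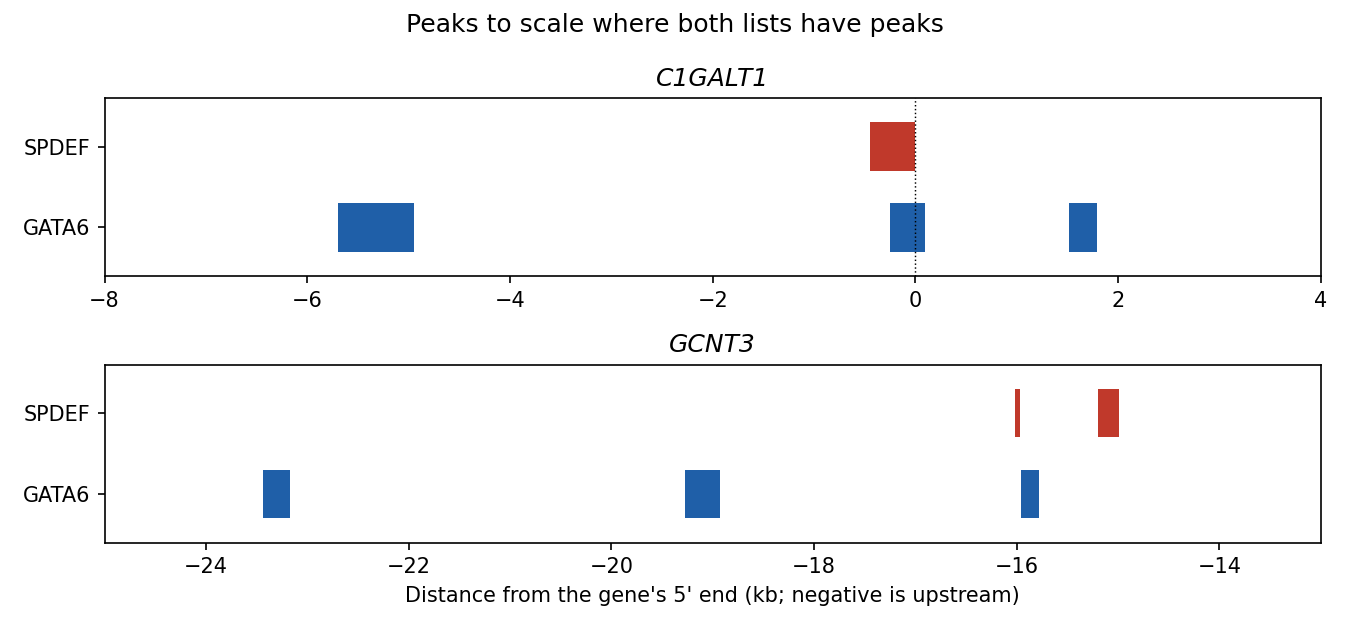
Peaks drawn to scale as distance in kb from the 5′ end of C1GALT1 (top) and GCNT3 (bottom), with SPDEF in red and GATA6 in blue; the dotted line is the 5′ end of C1GALT1. At C1GALT1 the red and blue bars at the 5′ end share 248 bp, and at GCNT3 the narrow red bar and the nearest blue bar, about 16 kb upstream, are 16 bp apart.

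B3GNT3 (chromosome 19, 17905 to 17924 kb), which adds N-acetylglucosamine to extend core 1 chains, had 1 SPDEF peak inside the gene, 3.2 kb past the 5′ end (17908113 to 17908351, 239 bp). An SPDEF peak was present in 7.79% of 119 kb tiles. The nearest GATA6 peak to the gene was 323.9 kb away (17580741 to 17581089), and 23.4% of 119 kb tiles held one. FCHO1 and INSL3 are the protein-coding neighbours.

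ST6GALNAC1 (chromosome 17, 74620 to 74640 kb), the sialyltransferase that makes the sialyl-Tn antigen of carcinomas, had GATA6 peaks alone. Those at 16 kb (74655852 to 74656058, 207 bp) and 16.4 kb (74656260 to 74656520, 261 bp) upstream of the 5′ end were separated by 201 bp. The third lay 42.0 kb past the 5′ end (74597811 to 74598101, 291 bp), downstream of the gene. At least 3 GATA6 peaks were found in 4.74% of 120 kb tiles and at least 1 in 23.9%. The nearest SPDEF peak was 644.1 kb from the gene, and 7.76% of the tiles held an SPDEF peak. ST6GALNAC2, a related sialyltransferase, lies on the downstream side of ST6GALNAC1 in the order of RefSeq genes, and MXRA7 on the upstream side, so a peak of this window may lie nearer to another gene.

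Among the GALNT genes, GALNT3 and GALNT4 had a GATA6 peak at the 5′ end. GALNT3 (chromosome 2, 166604 to 166651 kb), best known for modifying the hormone FGF23, had a peak of 461 bp (166650587 to 166651047) with its midpoint 0.2 kb inside the gene. A further peak lay 10.7 kb upstream (166661549 to 166661772, 224 bp). In RefSeq the protein-coding LOC124906086 overlaps GALNT3, and its place against these peaks was not read. At least 2 GATA6 peaks were found in 12.5% of 147 kb tiles and at least 1 in 27.3%. The nearest SPDEF peak was 1036 kb away, and 9.19% of tiles of 147 kb held an SPDEF peak.

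GALNT4 (chromosome 12, 89913 to 89919 kb) had 1 GATA6 peak, of 599 bp (89919397 to 89919995), with its midpoint 0.7 kb before the 5′ end. In RefSeq, GALNT4 lies within POC1B, a centriole gene on the same strand, and shares the readthrough gene POC1B-GALNT4 with it, so the peak cannot be assigned to GALNT4 over POC1B. A GATA6 peak was found in 21.9% of 106 kb tiles, and chromosome 12 is rich in GATA6 peaks: its own rate gives 0.752 peaks for this window, against 0.372 by the rate of chromosomes 1 to 22 and X. The nearest SPDEF peak was 127.8 kb away, and 6.94% of the tiles held one. It was the SPDEF peak nearest to any of the 6 genes without one.

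The remaining GALNT genes had few peaks, and those far from the 5′ end. GALNT2 (chromosome 1, 230193 to 230418 kb), a broadly expressed initiating enzyme, had 1 GATA6 peak, 33.2 kb inside the gene (230226104 to 230226358, 255 bp). The protein-coding LOC124904542 overlaps GALNT2 in RefSeq, and its place against this peak was not read. GALNT7 (chromosome 4, 174090 to 174246 kb), which acts on peptides that already carry a sugar, had 1 GATA6 peak of 39 bp, 10.0 kb past its 3′ end (174256026 to 174256064). A GATA6 peak was found in 44.7% of 325 kb tiles and in 39.0% of 256 kb tiles, the lengths of these windows, so 1 peak at either gene is near the background. An SPDEF peak was found in 17.5% and 14.6% of them, and the nearest SPDEF peaks were 835.6 kb from GALNT2 and 3943 kb from GALNT7. HMGB2 is the protein-coding neighbour past the 3′ end of GALNT7, so the GATA6 peak there may lie nearer to HMGB2.

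GALNT12 (chromosome 9, 101570 to 101613 kb), an initiating enzyme of the colon among other tissues, had 0 peaks in its window. The nearest GATA6 peak was 1104 kb away and the nearest SPDEF peak 2932 kb away. Of 143 kb tiles, 27.1% held a GATA6 peak and 9.08% an SPDEF peak, so most windows of this length were empty too. ANKS6 and COL15A1 are its protein-coding neighbours.

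Few peaks lay close to the limit of 50 kb. Those just inside it were the SPDEF peak 43.4 kb from the edge of GCNT3 and the GATA6 peak 45.4 kb from that of C1GALT1. Just outside were a GATA6 peak of 41 bp, 56.2 kb from GCNT3 (59846768 to 59846808), and one of 567 bp, 67.7 kb from GALNT4 (89844717 to 89845283). No SPDEF peak lay between 50 and 100 kb from any of the 9 genes.

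By place, 1 of the 5 SPDEF peaks lay within 1 kb of a 5′ end, 3 lay farther upstream and 1 inside a gene. Of the 17 GATA6 peaks, 3 lay within 1 kb of a 5′ end, 9 farther upstream, 3 inside a gene and 2 downstream. An overlap with GATA6 was found for 1 of the 5 SPDEF peaks (20%, 3.62 to 62.4 as the 95% Wilson interval), beside 1796 of 2775 in the whole list (64.7%). The reverse held for 1 of the 17 GATA6 peaks (5.88%, 1.05 to 27), beside 1717 of 10670 (16.1%). These differences were not tested, since peaks are not replicates. When midpoints within 1 kb counted as shared, 3 of the 5 SPDEF peaks had a GATA6 partner, the peak at C1GALT1 and the 2 nearer peaks of GCNT3. The 2 that had none were the peak in B3GNT3 and the one 43.5 kb before GCNT3, 12579 bp from the nearest GATA6 peak. The share of the whole SPDEF list under this wider rule was not computed, so the 64.7% is no background for it.

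Most peaks near the 9 genes were narrower than the median of their list. Quartiles of the whole lists were 208 to 391 bp for SPDEF and 235 to 641 bp for GATA6. Both medians near the genes lay inside them. The median SPDEF width was 228 bp (45 to 439), beside 268 bp in the whole list, and 1 of 5, that of C1GALT1, was wider than the list's median. The median GATA6 width was 268 bp (39 to 757), beside 346 bp, and 5 of 17 were wider than the list's median. Those 5 were at GCNT3 (352 bp), GALNT3 (461 bp), GALNT4 (599 bp) and C1GALT1 (437 and 757 bp). Peaks under 100 bp made up 4.83% of the SPDEF list and 2.99% of the GATA6 list. They included the 45 bp SPDEF peak at GCNT3, the 65 bp GATA6 peak upstream of C1GALT1 and the single GATA6 peak of GALNT7. The SPDEF peak at C1GALT1 was wider than 80.3% of its list, and the 757 bp GATA6 peak wider than 81.0%.

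**Figure D4:**
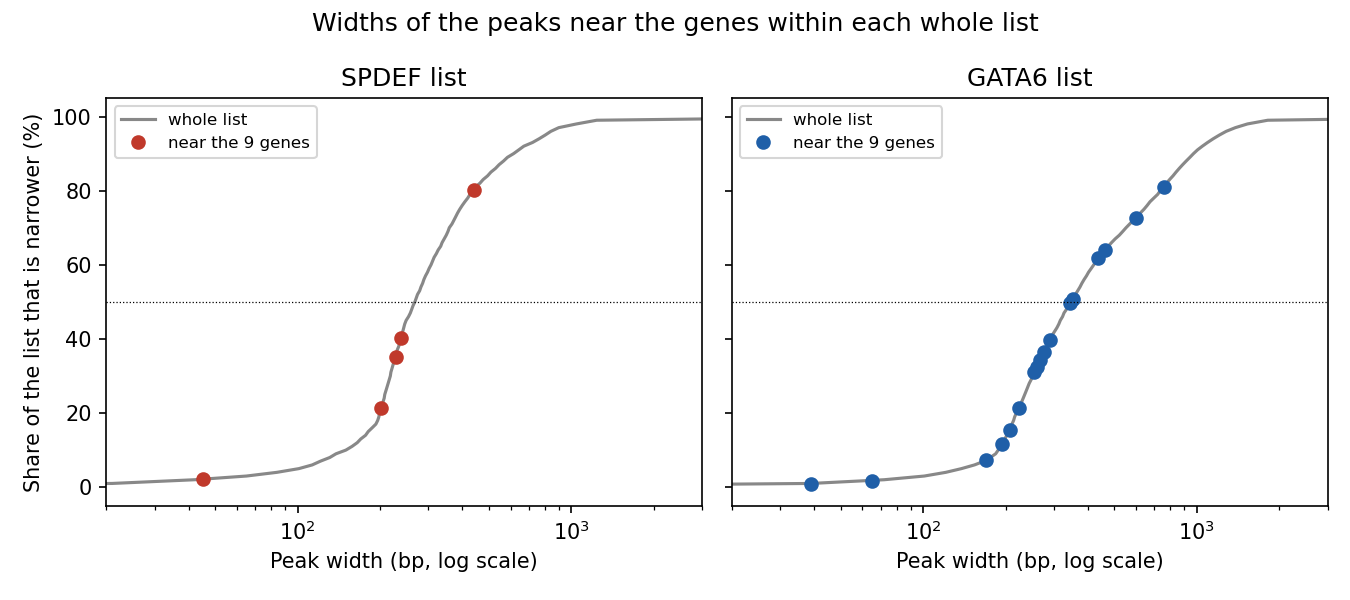
Width in bp on a log axis against the share of the list that is narrower, for the whole SPDEF list (left) and GATA6 list (right) as grey lines, with the peaks near the 9 genes as points and the list median as a dotted line. Of the SPDEF points 4 lie below the line and 1, at 439 bp, above it; of the GATA6 points 12 lie below and 5 above.

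Promoters were on hand for 7 of the 9 genes, without ST6GALNAC1 and GALNT4, and were searched on both strands from 250 bases before to 50 bases after the start. The ETS motif CCGGAA was found in 2 of the 7, GALNT7 and GALNT12, and in 17.2% of 35116 RefSeq promoters of this length. The variant CCGGAT, close to sequences reported for SPDEF, was found in the same 2 and in 7.12% of all. In GALNT7 the 2 motifs share bases on opposite strands. The GATA motif AGATAA was found in GCNT3 alone of the 7 and in 10.3% of all promoters, and TGATAA in 0 of 7 (7.53% of all). The promoters of C1GALT1 and GALNT3, at which peaks lay, held none of the 4. They held 3 matches each to the shorter core GGAA, 1 of those of GALNT3 being after the start, and 95.5% of all promoters hold it. C1GALT1 held 2 to GATA, which 49.7% hold. These 2 cores were added after the data were seen, and each longer motif but CCGGAT contains one of them.

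In base composition GCNT3 stood apart from the others. Its promoter had 42.3% G and C and 3 CG steps in 300 bases. Those of C1GALT1, B3GNT3, GALNT12, GALNT7, GALNT3 and GALNT2 had 64.3 to 82.0% G and C and 19 to 51 CG steps, and the median of all promoters was 58.7% and 14. All SPDEF and GATA6 peaks of GCNT3 lay 15.1 kb or more from this promoter. Of the 6 promoters richer in G and C, those of C1GALT1 and GALNT3 had a peak midpoint within 2 kb and those of B3GNT3, GALNT2, GALNT7 and GALNT12 had none.

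Other genes of O-glycan synthesis could be placed only by cytogenetic band, and a band holds many genes, so its count says nothing about 1 gene. Of the 24 bands of 24 other such genes, 12 had more SPDEF peaks per Mb than chromosomes 1 to 22 and X together, beside 33.8% of all 851 bands, and 12 had more GATA6 peaks, beside 42.2%. The band of ST6GALNAC2, 17q25.1, also holds ST6GALNAC1 and is counted again among those of the 9 genes. Among bands of the 9 genes the numbers above the rate were 4 of 9 for SPDEF and 3 of 9 for GATA6. The GATA6 number was counted on rounded ratios. It left out 19p13.11 of B3GNT3 and 1q42.13 of GALNT2, whose ratios round to 1. The 42.2% was counted on unrounded rates, so the GATA6 number cannot be set against it. Among the bands of the 24 other genes, the highest SPDEF ratio, 11 times the rate, was in 12q13.13, the band of GALNT6, an initiating enzyme. Next among these 24 came 14q24.1 of GALNT16 (6.2) and 20q13.13 of B4GALT5 (3.55), a galactosyltransferase that extends chains. The X chromosome band of C1GALT1C1, the chaperone that C1GALT1 needs to fold, stood at 0.498 times the rate for SPDEF and 0.453 times for GATA6. Across all bands the median ratio was 0.487 in the SPDEF list and 0.813 in the GATA6 list. The C1GALT1C1 band was thus near the middle of all bands by SPDEF peaks and below their median by GATA6 peaks. For the 9 genes, the 12q21.33 band of GALNT4 had ratios of 4.57 and 5.06, yet the GALNT4 window held 0 SPDEF peaks and 1 GATA6 peak. At GCNT3 the band ratio was 0.997, and 3 of the 4 SPDEF peaks of that band, 15q22.2, were in the GCNT3 window. The band ratio thus rests mostly on the window's own peaks and is no separate background for it.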

How the data were processed

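The deposited data used were the authors' lists of SPDEF and GATA6 peaks from HPAF-II, each giving chromosome, start and end in bp and no score. Tools listed in the submitters' processing notes are MACS2 2.2.7.1, deepTools, Bowtie2 2.4.4 and SAMtools 1.14, with the builds hg19 and mm10 and no account of each step. Whether the 3 libraries of a target were pooled, the control, the threshold and the depth are not stated there. The lists were assigned by target name. On hg19, 0 peaks ended past a chromosome end. Starts were counted from 1.

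Gene edges to 1 kb were taken from the rule that defined the set. Peaks sharing at least 1 bp with the gene extended by 50 kb were kept. All were named, in place of any selection. Counts were set beside the number given by length and beside tiles of equal length, and shares carry 95% Wilson intervals. No test was made. Genes, lists and motifs were chosen with earlier results of these data known. Interval counting was tested on simulated peaks. Alternatives were other distances, wider peaks and other overlap rules. Genes of other pathway steps were tied to hg19 bands by band name from GRCh38.p14 positions. Chromosome lengths came from GenomeInfoDb 1.38.1 and bands from circlize 0.4.16 (R 4.3.3). Intervals and counts were computed with scipy 1.17.1 and numpy 2.4.6 under Python 3.11.15, and plots with matplotlib 3.10.9.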

Additional observations from a re-analysis of the deposited data

How the results depend on the processing

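No paired analysis was possible because the 3 libraries of a target are represented by a single list of positions, and for the same reason no replicate could be left out. With a limit of 25 kb or 100 kb, or with peaks of at least 100 bp, all 9-gene counts stayed within 1.5 times those reported. All shares stayed within the interval of the reported share. This says little, since the interval of the SPDEF share ran from 3.62 to 62.4%. Even the 60% found with midpoints within 1 kb lay inside it. Within 10 kb, 2 SPDEF and 7 GATA6 peaks were left, and 4 genes with a GATA6 peak. With the wider 50% of each list, 1 SPDEF peak was left, at 1 gene, and 5 GATA6 peaks at 4 genes. No overlapping pair was then left (0 genes, 0% of SPDEF and 0% of GATA6 peaks), because the GATA6 peak at the C1GALT1 promoter, 344 bp, falls just under the list median of 346 bp. With midpoints within 1 kb, or with edges within 100 bp, a rule chosen after the data were seen, genes with a shared pair rose from 1 to 2, GCNT3 being added. Of the distances and widths run, only 100 kb could add peaks. Within 100 kb GALNT12 had 0 peaks, and the 5 GALNT genes and ST6GALNAC1 had 0 SPDEF peaks. Of 90 counts for single genes, 74 stayed within 1.5 times and 16 did not. The 74 include every gene with 0 peaks of a list at 50 kb. Such a count could change only within 100 kb, so the 74 overstate how stable the counts were. Totals as small as 5 peaks limit what the SPDEF list can show, and the unknown depth means that a gene without a listed peak cannot be called unbound.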
